A study of Mus musculus with 25 samples.

Results

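The effect of a homozygous NRF2 substitution on mouse esophagus was set side by side in adults and in pups, gene by gene. The quantity described is the log2 fold change of NRF2L30F/L30F over Wild-Type in adults minus the same log2 fold change in pups, each computed within its own table of normalised counts. A positive difference means a higher effect in adults and a negative difference a higher effect in pups. Of 21954 genes listed in either table, 19094 were in both, matched by Ensembl gene identifier, and 19031 of these were tested at both ages.

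The comparison drew on 4 groups. Adult homozygotes carried NRF2L30F/L30F with K5CreERT2, a Cre recombinase under the keratin 5 promoter that acts after tamoxifen (4 libraries). Adult Wild-Type mice gave 4 libraries. Pup homozygotes carried NRF2L30F/L30F with K5Cre, a Cre recombinase under the same promoter that needs no inducer (3 libraries), and Wild-Type pups gave 3 libraries. Adults were 6 to 9 weeks old and were taken 1 week after tamoxifen at 100 µg per g body weight. Pups were 7 to 10 days old. Age, Cre driver and tamoxifen differed together, so their shares in any difference cannot be told apart. The labels do not say whether Wild-Type mice carried a Cre allele or received tamoxifen. Nor do they state that libraries are from different animals, and the p-values therefore measure the spread between libraries, which may be technical.

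NRF2, encoded by Nfe2l2, is a transcription factor that pairs with small MAF proteins and turns on genes of glutathione synthesis, detoxification and NADPH supply. KEAP1 binds NRF2 through a short motif near its N terminus, the DLG motif, and hands it to a ubiquitin ligase for degradation. L30F replaces leucine with phenylalanine at codon 30, within that motif, so that KEAP1 holds the protein less well. Esophagus of mice is lined by a stratified squamous epithelium whose keratin 5-positive basal cells divide and whose upper layers cornify. The tissue also holds fibroblasts, vessels and, in mice, striated muscle. All libraries were of bulk tissue, in which fewer cells of a type and less RNA per cell cannot be told apart.

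NRF2 with a small MAF protein binds the antioxidant response element, whose core is TGACNNNGC on one strand and GCNNNGTCA on the other. Its letters were searched on both strands in RefSeq promoters of build GRCm38.p6, from 250 bases before to 50 bases after each start site. The motif occurred in 3781 of 27025 gene symbols, or 14.0%. Among genes with a promoter in the table, it occurred in 5 of 12 for glutathione and thioredoxin and 3 of 8 for NADPH and pentose phosphate enzymes. It occurred in 4 of 13 for NRF2 and its partners, 7 of 36 for detoxification and 1 of 4 for metallothioneins. Such shares were not particular to these lists. It also occurred in 5 of 13 barrier lipid, 5 of 14 interferon-stimulated and 10 of 40 cornified envelope genes. It was absent from others, with 0 of 13 Notch and 0 of 10 antimicrobial genes. Windows of 29 bases are shown for 7 genes to which the results return, with the motif in capitals and each read on the strand of its gene. Matches are a description of letters and not of binding.
Nfe2l2: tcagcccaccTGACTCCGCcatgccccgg
Txnrd1: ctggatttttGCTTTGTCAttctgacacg
Gclm: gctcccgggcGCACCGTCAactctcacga
Prdx1: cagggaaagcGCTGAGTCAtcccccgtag
G6pdx: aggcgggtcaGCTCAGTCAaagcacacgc
Maff: gggcgtctcaTGACTCTGCcactggaaag
Mt2: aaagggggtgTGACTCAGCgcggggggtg
In GRCm38.p6 these lie at chr2:75704885-75704913 (Nfe2l2, minus strand), chr10:82859104-82859132 (Txnrd1), chr3:122245413-122245441 (Gclm), chr4:116685456-116685484 (Prdx1), chrX:74428919-74428947 (G6pdx, minus strand), chr15:79346499-79346527 (Maff) and chr8:94172529-94172557 (Mt2). In the windows shown, the motif ended 48 to 231 bases before the start site, nearest in G6pdx and farthest in Nfe2l2.

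Depth was 10867745 to 11643384 reads in adult homozygotes, against 27529863 to 32281335 in adult Wild-Type libraries. It was 18946148 to 19489227 reads in pup homozygotes and 18791985 to 19179279 in Wild-Type pups. The adult Wild-Type library 4 stood apart from the other 3, with a chi-square per gene of 43.8 to 53.6 in its pairs, against 17.2 to 22.8 in the other pairs. Without it the difference passed the test at 6351 genes instead of 6369. The pup homozygote library 1 held 30814 normalised counts of the thyroid gene Tg, against 11.98 to 30.2 in the other pup libraries. The pup homozygote library 3 held 0 counts of the Y-linked Ddx3y, against 542 to 1281 in the other 5 pup libraries. Trp63, Krt5, Krt14, Krt4 and Krt13, which mark squamous epithelium, were high in all 4 groups, with a lowest value of 2002 for Trp63 in Wild-Type pups.

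The effect of the substitution differed between adults and pups at 6369 of 19031 genes, which is 33.5% (limma, Benjamini-Hochberg adjusted p under 0.05). The effect was higher in adults at 2582 genes (13.6%) and lower in adults at 3787 (19.9%). The difference was at least 2-fold at 3131 of them, 1271 higher and 1860 lower, and its median size was 0.98 on the log2 scale. In adults 4333 genes (22.8%) differed between homozygotes and Wild-Type, 2307 up (12.1%) and 2026 down (10.6%). In pups 7741 genes (40.7%) did, 4484 up (23.6%) and 3257 down (17.1%). Effects were broader in pups, with an SD over genes of 1.152, against 0.686 in adults. Median effects were -0.01 in adults and -0.004 in pups, and the median difference was -0.035.

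Genes that passed the test at both ages mostly moved the same way. There were 993 genes up (5.22%) and 420 down (2.21%) at both ages, 1413 in all (7.42%), and the pup effect was the larger at 1075 of them. Of the 478 whose difference passed, 445 had the larger effect in pups and 33 in adults. Another 940 genes (4.94%) moved in opposite directions. These comprised 360 that rose in adults and fell in pups (1.89%) and 580 that fell in adults and rose in pups (3.05%). Across genes the 2 effects had a Pearson correlation of 0.222 and a Spearman correlation of 0.115, given as a description, since genes are not independent replicates. A further 2911 genes were called up in pups and not called in adults, and the difference passed the test at 2079 of them.

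**Figure D1:**
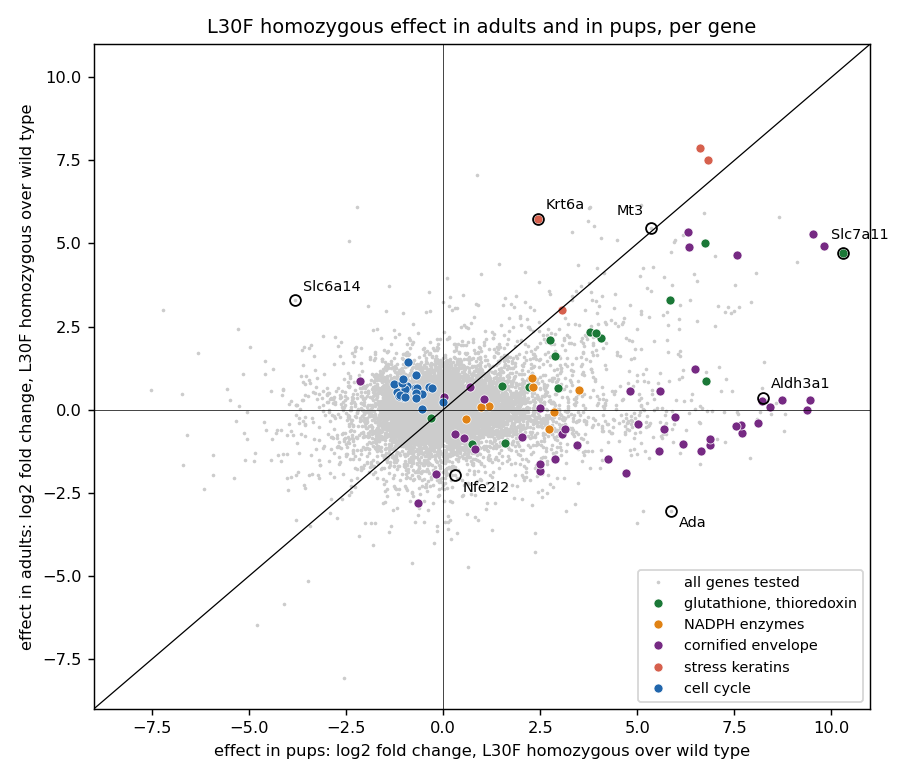
Effect of NRF2L30F/L30F over Wild-Type in adults (vertical axis) against the effect in pups (horizontal axis), both as log2 fold changes, with each point a gene tested at both ages. Pup effects spread more widely (SD 1.152) than adult effects (SD 0.686), and points in the upper left and lower right hold the 940 genes called in opposite directions.

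Nfe2l2 itself differed in effect between the ages. Adult homozygotes held 1806, 1618, 1204 and 1199 normalised counts, against 6110, 5203, 5638 and 5695 in adult Wild-Type. Pup homozygotes held 1601, 1291 and 2030, against 1261, 1338 and 1305 in Wild-Type pups. The adult groups did not overlap, while the pup groups did. Nfe2l2 fell by 1.98 on the log2 scale in adults (adjusted p = 1.2e-08), and its pup effect of 0.31 did not pass (adjusted p = 0.17). The difference was -2.29 ± 0.20 (SE, adjusted p = 4.7e-08). Adult heterozygotes, from the same table, lay between, at 4117, 3307, 3542 and 3293. A substitution of 1 codon is not visible in a count per gene, so these counts do not check the genotype. Keap1 mRNA, which encodes the NRF2 adaptor, ranged from 1172 to 1387 in adult homozygotes and from 1077 to 1192 in adult Wild-Type. The interval of its difference was -0.27 to 0.35 around 0.04.

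Among 14 tested genes of NRF2, its relatives, partners and regulators, 8 had a lower effect in adults and 0 a higher one, with a median difference of -0.35 beside -0.035 over all genes. In pups 7 rose and 2 fell, and in adults 1 rose and 2 fell. Maff, a small MAF partner, held 736, 758 and 748 counts in pup homozygotes and 144, 120 and 94.1 in Wild-Type pups. In adults it held 446, 483, 339 and 525 counts in homozygotes, which overlapped the 561, 481, 569 and 395 in Wild-Type. Maff also carries the response element letters in its promoter window. The difference for Maff was -2.82 ± 0.24 (adjusted p = 4.7e-10). Mafg, another small MAF, rose by 1.21 in pups and had an effect of -0.06 in adults (adjusted p = 0.7). Nfe2l3, which encodes a relative of NRF2, moved in opposite directions, down by 0.71 in adults and up by 1.37 in pups. Bach1, a repressor of the same response elements, rose at both ages, by 0.41 in adults and 0.64 in pups. Its difference of -0.23 had an interval of -0.53 to 0.07.

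Most glutathione and thioredoxin genes, the core of the NRF2 programme, rose at each age. Of 15 tested, 11 rose and 1 fell in adults, and 12 rose and 1 fell in pups. The effect was lower in adults for 12 and higher for 0. Their median effect was 1.62 in adults and 2.97 in pups, and their median difference -1.72. Slc7a11, the cystine transporter that feeds glutathione synthesis, held 37088, 32477, 26627 and 31554 counts in adult homozygotes, against 1057, 1271, 1100 and 1412 in adult Wild-Type. Pup homozygotes held 66951, 79586 and 74020 counts, against 56.1, 57.8 and 59.0 in Wild-Type pups. No libraries overlapped at either age, and homozygous levels lay closer together than Wild-Type levels did. Slc7a11 rose by 4.72 in adults and 10.29 in pups, a difference of -5.57 ± 0.14 (adjusted p = 2e-19). Levels are set here across tables that were normalised separately.

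Gclc, the catalytic chain of the enzyme that opens glutathione synthesis, rose by 5.02 in adults and 6.74 in pups (difference -1.72 ± 0.18, adjusted p = 2.9e-08). Its counts were 15765 to 27186 in adult homozygotes and 635 to 704 in adult Wild-Type. In pups they were 47320 to 52864 in homozygotes and 418 to 519 in Wild-Type. Gclm, the modifier subunit, rose by 2.32 in adults and 3.77 in pups. The sulfiredoxin gene Srxn1 rose by 3.31 in adults and 5.83 in pups (difference -2.52 ± 0.22), and Prdx1, the peroxiredoxin gene whose product sulfiredoxin repairs, by 2.32 and 3.93. Txnrd1, thioredoxin reductase, rose by 0.65 in adults and 2.97 in pups. Txnrd1, Gclm and Prdx1 are 3 of the 5 genes of this list with the response element letters in their promoter. Gsr, glutathione reductase, had a smaller difference, -0.67 ± 0.17 (adjusted p = 0.0038), with effects of 2.08 in adults and 2.75 in pups. Slc3a2, the chain that partners Slc7a11, rose by 1.62 in adults and 2.88 in pups.

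Gpx2, an epithelial glutathione peroxidase, had the most unequal effects of the list. Its counts were 6815, 5445, 4511 and 7792 in adult homozygotes, against 3694, 2847, 3492 and 3299 in adult Wild-Type. They were 11910, 10570 and 10831 in pup homozygotes, against 85.5, 91.6 and 128 in Wild-Type pups. Each comparison was free of overlap, and the Wild-Type level differed far more between the ages than the homozygous level. Gpx2 rose by 0.86 in adults and 6.78 in pups (difference -5.92 ± 0.20, adjusted p = 1e-15).

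Detoxification enzymes and transporters followed the same order with few exceptions. Of 41 tested, 32 had a lower effect in adults and 4 a higher one, with a median difference of -1.98. Among the 36 with a mean of at least 50 counts, 2 had a higher one. In adults 31 rose and 4 fell, and in pups 37 rose and 0 fell. Nqo1, a quinone reductase and standard NRF2 readout, held 6815, 5515, 4833 and 8055 counts in adult homozygotes, against 1240, 984, 1035 and 1094 in adult Wild-Type. It held 10500, 9777 and 9688 in pup homozygotes, against 72.1, 80.9 and 77.0 in Wild-Type pups. Groups did not overlap at either age. Nqo1 rose by 2.51 in adults and 7.01 in pups (difference -4.50 ± 0.15, adjusted p = 6.9e-17).

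Aldh3a1, an aldehyde dehydrogenase abundant in squamous epithelia, passed the test in pups only. Adult homozygotes held 31700, 30917, 23816 and 43613 counts, which overlapped the 29592, 24176, 22606 and 23433 of adult Wild-Type. Pup homozygotes held 52699, 47679 and 43868, against 115, 160 and 216 in Wild-Type pups. The adult Wild-Type level was thus already of the order of the homozygous levels. The effect was 0.36 in adults (adjusted p = 0.14) and 8.23 in pups, a difference of -7.88 ± 0.26 (adjusted p = 3.1e-15). Ugt1a7c, a glucuronosyltransferase, rose by 0.71 in adults and 4.55 in pups.

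The 4 exceptions with a higher effect in adults were Gsto1, Akr1c18, Akr1c12 and Abcc2. Gsto1, an omega-class glutathione transferase, held 29444 to 54222 counts in adult homozygotes and 5734 to 10655 in adult Wild-Type. It held 77088 to 84469 in pup homozygotes and 21081 to 24950 in Wild-Type pups, so its Wild-Type level was higher in pups. It rose by 2.50 in adults and 1.79 in pups, and the difference was 0.71 ± 0.21 (adjusted p = 0.0096), which did not pass in 1 fit over both tables (0.71, adjusted p = 0.079). Akr1c18, an aldo-keto reductase that inactivates progesterone, held 648, 381, 451 and 265 counts in adult homozygotes and 3.39, 4.64, 6.22 and 7.39 in adult Wild-Type. It held 297, 872 and 1252 in pup homozygotes and 37.4, 60.5 and 54.8 in Wild-Type pups. The difference for Akr1c18 was 2.30 ± 0.60 (adjusted p = 0.0074), and it did not pass by limma-voom (2.48, adjusted p = 0.087) or with the smooth muscle sum as a covariate (2.13, adjusted p = 0.071). Over all alternatives it ran from 1.70 to 2.74. Members of the Akr1c and glutathione transferase families are near copies of each other, between which reads can be split.

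Enzymes that regenerate NADPH, listed together with others of the pentose phosphate pathway, had a lower effect in adults for 8 of 8. Their median difference was -1.47. All 8 rose in pups, while in adults 3 rose and 2 fell, with median effects of 0.09 in adults and 2.29 in pups. Me1, malic enzyme, moved in opposite directions. Its counts were 4209, 3719, 3879 and 5077 in adult homozygotes, against 6836, 6208, 6410 and 5759 in adult Wild-Type. They were 5538, 5280 and 4397 in pup homozygotes, against 616, 819 and 871 in Wild-Type pups. Neither age showed overlap, and the order of the groups turned round. Me1 fell by 0.59 in adults (adjusted p = 0.022) and rose by 2.73 in pups (difference -3.32 ± 0.21, adjusted p = 4.1e-12). G6pdx, which opens the pentose phosphate pathway, rose by 0.58 in adults and 3.51 in pups. Pgd, the next NADPH-producing enzyme, had an adult effect of -0.08 (adjusted p = 0.73) and a pup effect of 2.85. The transaldolase Taldo1 rose by 0.97 in adults and 2.28 in pups, and the transketolase Tkt by 0.67 and 2.30.

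Heme and iron genes had a lower effect in adults for 6 of 9 and a higher one for 0, with a median difference of -0.96. Hmox1, heme oxygenase, ranged from 1504 to 3879 in adult homozygotes, which overlapped 1137 to 2288 in adult Wild-Type. In pups it held 4119 to 4805 in homozygotes and 191 to 231 in Wild-Type. The difference for Hmox1 was -3.86 ± 0.27 (adjusted p = 1.1e-09). Blvrb, biliverdin reductase B, rose by 2.23 in adults and 3.68 in pups. Slc48a1, a heme transporter, rose by 0.68 in adults and 2.30 in pups. Of the ferritin chains, Ftl1 rose by 0.57 in adults and 1.25 in pups. The heavy chain Fth1 had an adult effect of -0.13 (adjusted p = 0.52) and rose by 1.35 in pups.

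Metallothioneins, small metal-binding proteins, had a lower effect in adults for 3 of 4, with a median difference of -3.51. Mt3, the exception, rose by close amounts at both ages. It held 2276, 1867, 1509 and 2682 counts in adult homozygotes, against 41.3, 57.4, 66.0 and 27.6 in adult Wild-Type. It held 2021, 1638 and 2373 in pup homozygotes, against 54.3, 45.4 and 43.6 in Wild-Type pups. Homozygous and Wild-Type ranges of Mt3 overlapped between the ages but not between the genotypes. Its effects were 5.45 in adults and 5.36 in pups, and the interval of the difference ran from -0.49 to 0.67. Mt1, Mt2 and Mt4 rose in pups by 3.42, 4.17 and 8.44, and none of the 3 passed the test in adults, with effects of 0.37, 0.21 and -0.14. Mt4, which belongs to squamous epithelia, held 6073 to 10016 counts in adult homozygotes and 7851 to 9381 in adult Wild-Type. It held 3292 to 4061 in pup homozygotes and 5.34 to 21.4 in Wild-Type pups, a difference of -8.58 ± 0.44 (adjusted p = 1.5e-07).

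Most proteasome subunits, which NRF2 also controls, rose at both ages. In adults 21 of 24 rose, and in pups 23 of 24. Their median effects were 0.34 in adults and 0.57 in pups, and their median difference was -0.18. For 8 the effect was lower in adults, led by Psma7 at -0.68 ± 0.10 and Psmb5 at -0.55 ± 0.11. With 0 higher, that is in all a share near the 33.5% of all genes with a difference in either direction. Of all genes, 19.9% had a lower effect in adults. For 12 of 24, both ages passed in the same direction and the interval of the difference lay within 0.5 of 0, a joint criterion met by 1.95% of all genes. Psmb6 was one of them, with effects of 0.26 in adults and 0.22 in pups and an interval of -0.17 to 0.26. Psma4 was another, with 0.39 and 0.33 and an interval of -0.15 to 0.27.

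**Figure D2:**
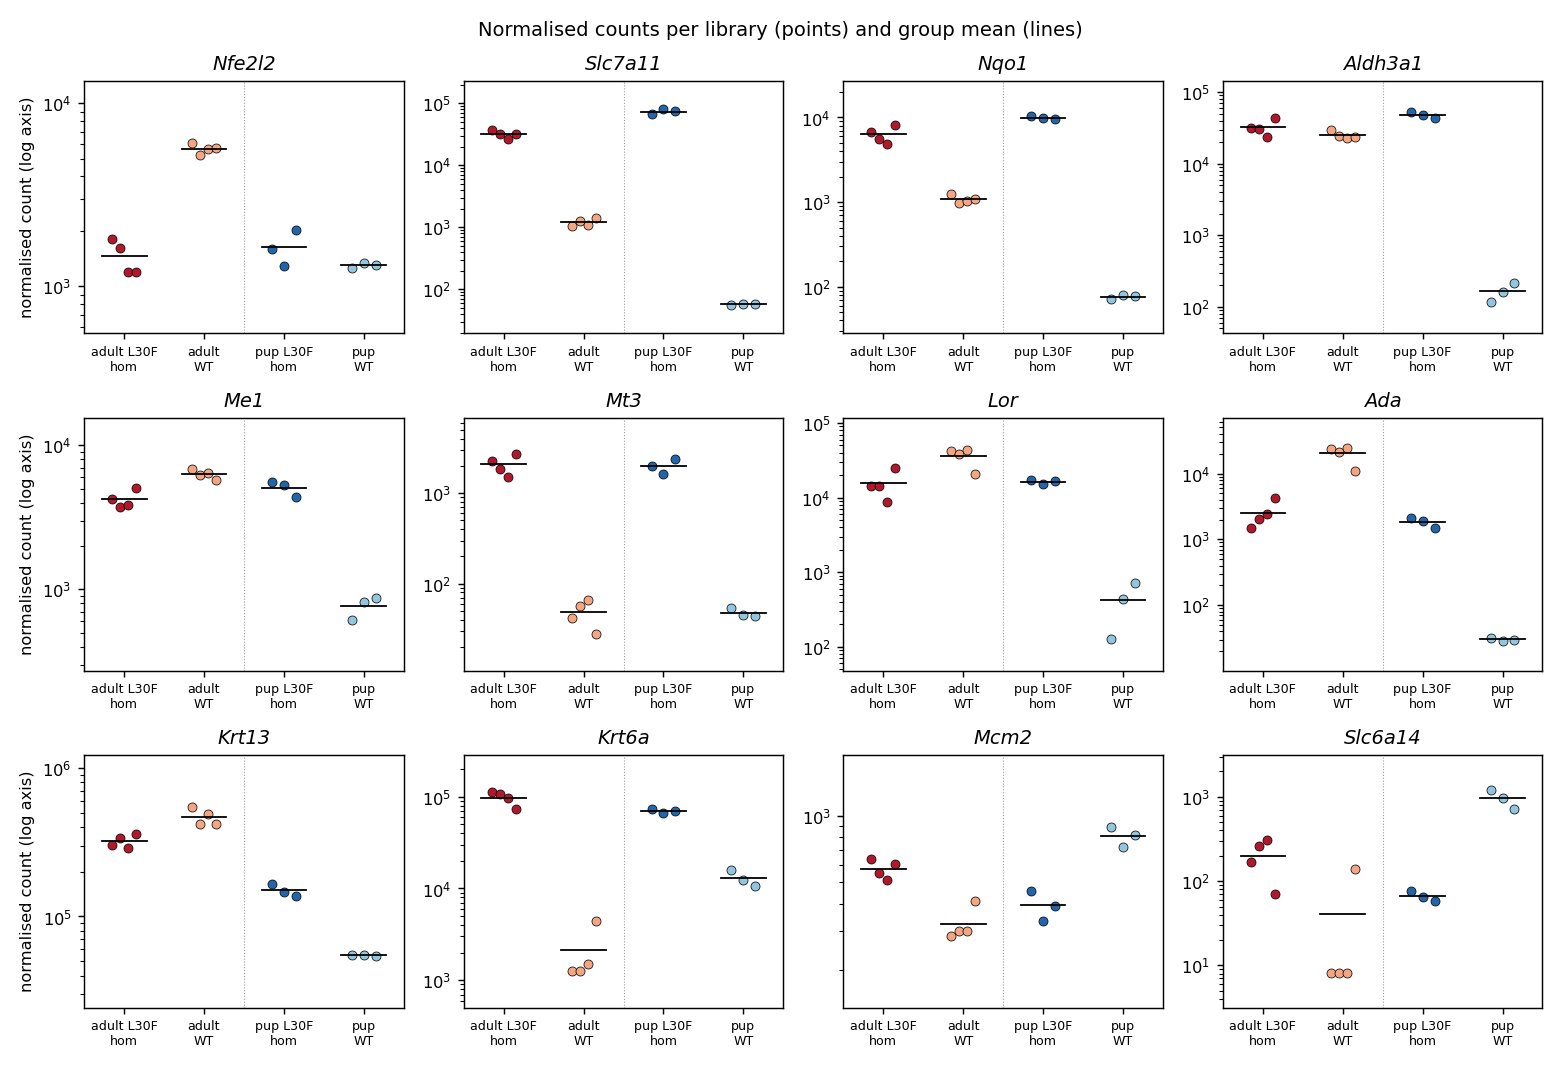
Normalised counts per library, on a log axis, of 12 genes in adult homozygotes, adult Wild-Type, pup homozygotes and pup Wild-Type, with each point a library and each line a group mean. Nfe2l2 separates the genotypes in adults and not in pups, Mt3 separates the genotypes by close amounts at both ages, and Me1, Lor, Ada, Krt13, Mcm2 and Slc6a14 change order between the ages.

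Genes of squamous differentiation also differed in effect between the ages. Cornified envelope genes, which build the dead outer layer, had a lower effect in adults for 38 of 44 and a higher one for 1. In pups 39 rose and 1 fell, and in adults 6 rose and 18 fell, with 15 called in opposite directions. Their median effect was -0.48 in adults and 5.57 in pups, and their median difference -4.70. Lor, loricrin, held 14290, 14152, 8688 and 25105 counts in adult homozygotes, against 41602, 38478, 43366 and 20825 in adult Wild-Type. It held 17228, 15234 and 16687 in pup homozygotes, against 128, 439 and 717 in Wild-Type pups. The adult ranges overlapped through the Wild-Type library 4, and the pup ranges were far apart. Lor fell by 1.26 in adults (adjusted p = 0.031) and rose by 5.57 in pups (difference -6.83 ± 0.69, adjusted p = 3.2e-06). Without that adult library the difference was -7.07.

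Tgm3, a transglutaminase that cross-links the envelope, fell by 0.82 in adults and rose by 2.03 in pups (difference -2.85 ± 0.19). Asprv1, a protease of filaggrin processing, held 10718 to 23691 counts in adult homozygotes and 31857 to 55090 in adult Wild-Type. It held 19119 to 21379 in pup homozygotes and 1967 to 3390 in Wild-Type pups, a difference of -4.36 ± 0.31 (adjusted p = 5.4e-11). Cst6, a cystatin of cornifying cells, had an adult effect of 0.57 (adjusted p = 0.053) and rose by 4.80 in pups. Late cornified envelope genes were close to 0 in Wild-Type pups. Lce3d held 2035, 2195 and 1639 counts in pup homozygotes, against 0.89, 0.889 and 5.99 in Wild-Type pups. Adult libraries held 428 to 804 counts of Lce3d in homozygotes and 423 to 845 in Wild-Type, a full overlap. The fitted difference for Lce3d was -9.38 ± 0.57, and it moved to -8.30 with an offset of 4 counts, since it depends on the offset at such low counts. Lce1g and Lce1d followed with differences of -9.17 ± 1.01 and -8.53 ± 0.84. Lce and Sprr genes lie in families of near-identical copies, so the split between members is uncertain.

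Small proline-rich Sprr2d broke the pattern. It rose at both ages, by 5.34 in adults and 6.31 in pups, and its difference of -0.97 had an interval of -3.45 to 1.51. Adult homozygotes held 2161, 2651, 6686 and 300 counts of Sprr2d, against 22.4, 27.8, 26.8 and 227 in adult Wild-Type. Pup homozygotes held 5078, 7927 and 9292, against 91.7, 85.4 and 92.4 in Wild-Type pups. Adult libraries of both genotypes thus scattered widely without overlapping.

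Lipid enzymes of the epidermal permeability barrier had a lower effect in adults for 17 of 17, with all 17 up in pups, and 1 up and 5 down in adults. Median effects were -0.36 in adults and 4.53 in pups, and the median difference was -5.13. Alox12b, a lipoxygenase that oxidises ceramide-bound linoleate, held 4745, 4285, 3286 and 6029 counts in adult homozygotes, against 10552, 8526, 10026 and 6335 in adult Wild-Type. It held 9014, 8886 and 8877 in pup homozygotes, against 280, 382 and 541 in Wild-Type pups. All Alox12b libraries of one genotype lay on one side of the other, on opposite sides at the 2 ages. Its effects were -0.96 in adults and 4.53 in pups (difference -5.48 ± 0.31, adjusted p = 1.5e-12). Cyp4f39, a fatty acid hydroxylase, had an adult effect of -0.51 (adjusted p = 0.05) and a pup effect of 4.08. Cers3, the ceramide synthase of very long chains, had -0.13 in adults (adjusted p = 0.61) and 3.29 in pups. Pla2g4e, a phospholipase, was the one that rose at both ages, by 0.58 in adults and 3.86 in pups. Its neighbours Pla2g4d and Pla2g4b had differences of -8.93 ± 0.83 and -9.37 ± 1.34, with as few as 0.89 and 0 counts in a Wild-Type pup library.

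Kallikreins, serpins and their inhibitors, which govern shedding of the outer layer, had a lower effect in adults for 14 of 16, with a median difference of -2.95. In pups 15 rose, while in adults 3 rose and 6 fell. Klk8 had an adult effect of -0.42 (adjusted p = 0.24) and a pup effect of 4.25. Klk11 fell by 0.68 in adults and rose by 1.54 in pups (difference -2.22 ± 0.17). Spink5, which encodes an inhibitor of kallikreins, rose at both ages, by 1.23 in adults and 5.22 in pups. Its counts were 29843 to 32513 in adult homozygotes, 13305 to 13817 in adult Wild-Type, 40062 to 54949 in pup homozygotes and 1072 to 1532 in Wild-Type pups. Klk6 rose by 3.74 in adults and 5.90 in pups (difference -2.16 ± 0.38), and by limma-voom the difference of -2.24 had an adjusted p of 0.19.

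Suprabasal genes had a lower effect in adults for 12 of 19 and a higher one for 3, with a median difference of -1.98. Krt13, with Krt4 the keratin pair of esophageal upper layers, held 305134, 335902, 288154 and 360037 counts in adult homozygotes, against 542698, 421066, 490498 and 420599 in adult Wild-Type. It held 165167, 145369 and 138263 in pup homozygotes, against 55304, 55044 and 54467 in Wild-Type pups. Krt13 fell by 0.54 in adults (adjusted p = 0.013) and rose by 1.44 in pups (difference -1.98 ± 0.16, adjusted p = 7e-10). Its partner Krt4 did not share that reversal. Krt4 fell by 1.72 in adults and by 2.12 in pups, with an interval of the difference from -0.53 to 1.33. Counts of Krt4 were 131669 to 239352 in adult homozygotes and 436308 to 647711 in adult Wild-Type, and 10711 to 19584 in pup homozygotes and 54846 to 61419 in Wild-Type pups.

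Krt10, a keratin of cornifying skin, went the other way. It held 2835, 3598, 1208 and 4667 counts in adult homozygotes, against 240, 541, 258 and 221 in adult Wild-Type. In pups it held 426, 401 and 438 in homozygotes, inside the 272, 449 and 620 of Wild-Type. Its difference was 3.23 ± 0.68 (adjusted p = 0.001). Dmkn, dermokine, had an adult effect of -0.29 (adjusted p = 0.15) and rose by 4.37 in pups. Emp1, an epithelial membrane protein, fell at both ages, by 0.51 in adults and 1.42 in pups, so that its difference was positive at 0.91 ± 0.15.

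Stress keratins, made by wounded or hyperproliferative epithelium, had a higher effect in adults for 2 of 4 and a lower one for 0, with a median difference of 0.98. Krt6a held 112795, 106622, 97725 and 73183 counts in adult homozygotes, against 1266, 1258, 1513 and 4445 in adult Wild-Type. It held 73478, 66979 and 69053 in pup homozygotes, against 15948, 12264 and 10691 in Wild-Type pups. Homozygous levels were of one order at both ages, and the Wild-Type level was higher in pups. Krt6a rose by 5.73 in adults and 2.45 in pups (difference 3.29 ± 0.45, adjusted p = 1.7e-05), and without adult Wild-Type library 4 the difference was 3.72. Krt6b, a near copy, rose by 7.87 in adults and 6.62 in pups. Its difference of 1.25 (adjusted p = 0.022) no longer passed without adult homozygote library 1 (1.18, adjusted p = 0.05), adult homozygote library 3 (1.13, 0.061), adult Wild-Type library 2 (1.16, 0.054) or adult Wild-Type library 3 (1.01, 0.071). Nor did it pass in 1 fit over both tables (1.25, adjusted p = 0.076) or with the smooth muscle sum as a covariate (1.10, 0.072). Krt16 rose by 7.51 in adults and 6.81 in pups, with an interval of the difference from -0.20 to 1.60. Krt17 rose by 3.05 in pups, and its adult effect of 3.01 did not pass (adjusted p = 0.078).

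Basal genes had a higher effect in adults for 3 of 16 and a lower one for 2, with a median difference of 0.18, and these counts are near the shares over all genes (13.6% and 19.9%). Without Wild-Type pup library 1 the lower count was 5, and with the striated muscle sum as a covariate the higher count was 5. Trp63, the p63 factor that defines squamous basal cells, held 4867, 4401, 4960 and 4601 counts in adult homozygotes, against 4398, 4149, 4556 and 3994 in adult Wild-Type. It held 5673, 6094 and 5909 in pup homozygotes, against 2753, 2002 and 2084 in Wild-Type pups. Trp63 overlapped in adults and separated in pups, for a difference of -1.24 ± 0.15 (adjusted p = 4.8e-07). Pdpn, podoplanin, rose by 0.66 in adults and fell by 1.12 in pups (difference 1.79 ± 0.20). Ngfr, a receptor of basal progenitors and of nerve, had a difference of 1.42 ± 0.28, with effects of -0.51 in adults and -1.92 in pups. Krt5, whose promoter drives both Cre alleles, rose by 0.48 in adults and 1.33 in pups. Its difference of -0.85 (adjusted p = 0.023) no longer passed without pup homozygote library 1 (-0.81, adjusted p = 0.065), pup homozygote library 2 (-0.82, 0.065), Wild-Type pup library 2 (-0.74, 0.079) or Wild-Type pup library 3 (-0.67, 0.075). Nor did it pass with the striated (-0.67, adjusted p = 0.088) or the smooth muscle sum (-0.96, 0.067) as a covariate. Krt14, its partner, rose by 2.01 in adults and 2.75 in pups. Its difference of -0.75 (adjusted p = 0.089) passed without adult homozygote library 1 (adjusted p = 0.045) or Wild-Type pup library 1 (0.02).

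Transcription factors of squamous differentiation had a lower effect in adults for 14 of 20 and a higher one for 2, with a median difference of -0.81. Grhl3, which drives barrier genes, held 3248, 2898, 3109 and 3079 counts in adult homozygotes, against 5092, 4404, 5280 and 3918 in adult Wild-Type. It held 3716, 3421 and 3732 in pup homozygotes, against 1182, 1014 and 980 in Wild-Type pups. Grhl3 fell by 0.59 in adults and rose by 1.78 in pups (difference -2.37 ± 0.17, adjusted p = 4.5e-11). Grhl1 and Klf4, with related roles, rose in pups by 2.02 and 1.95, and their adult effects of -0.20 and -0.23 did not pass (adjusted p = 0.18 and 0.19). Pitx1, a homeobox factor, rose by 0.24 in adults and 1.82 in pups. Elf3 was one of the 2 with a higher effect in adults. It fell by 0.75 in adults and 2.73 in pups (difference 1.98 ± 0.45, adjusted p = 0.0026).

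Genes of EGF-family ligands and receptors had a lower effect in adults for 9 of 12 and a higher one for 0, with a median difference of -1.07. Ereg, the ligand epiregulin, held 974 to 1667 counts in adult homozygotes, which lay around the 1027 to 1651 of adult Wild-Type. It held 2538 to 3093 in pup homozygotes and 67.7 to 81.8 in Wild-Type pups, a difference of -5.11 ± 0.33 (adjusted p = 1.4e-11). The ligand genes Tgfa and Btc rose in pups by 2.05 and 2.11, with adult effects of -0.45 and 0.32 that did not pass (adjusted p = 0.18 and 0.36). Among receptors, Erbb4 fell by 1.40 in adults and 1.70 in pups, and its difference had an interval of -0.73 to 1.35. Notch genes were mixed, with a higher effect in adults for 3 of 15 and a lower one for 4. Over all genes the shares were 13.6% and 19.9%, and the median difference of the Notch list was -0.10. Nrarp, a feedback inhibitor of Notch, fell by 0.69 in adults and rose by 0.87 in pups. The receptor genes Notch2 and Notch3 fell by 0.31 and 0.38 in adults and rose by 0.26 and 0.41 in pups.

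**Figure D3:**
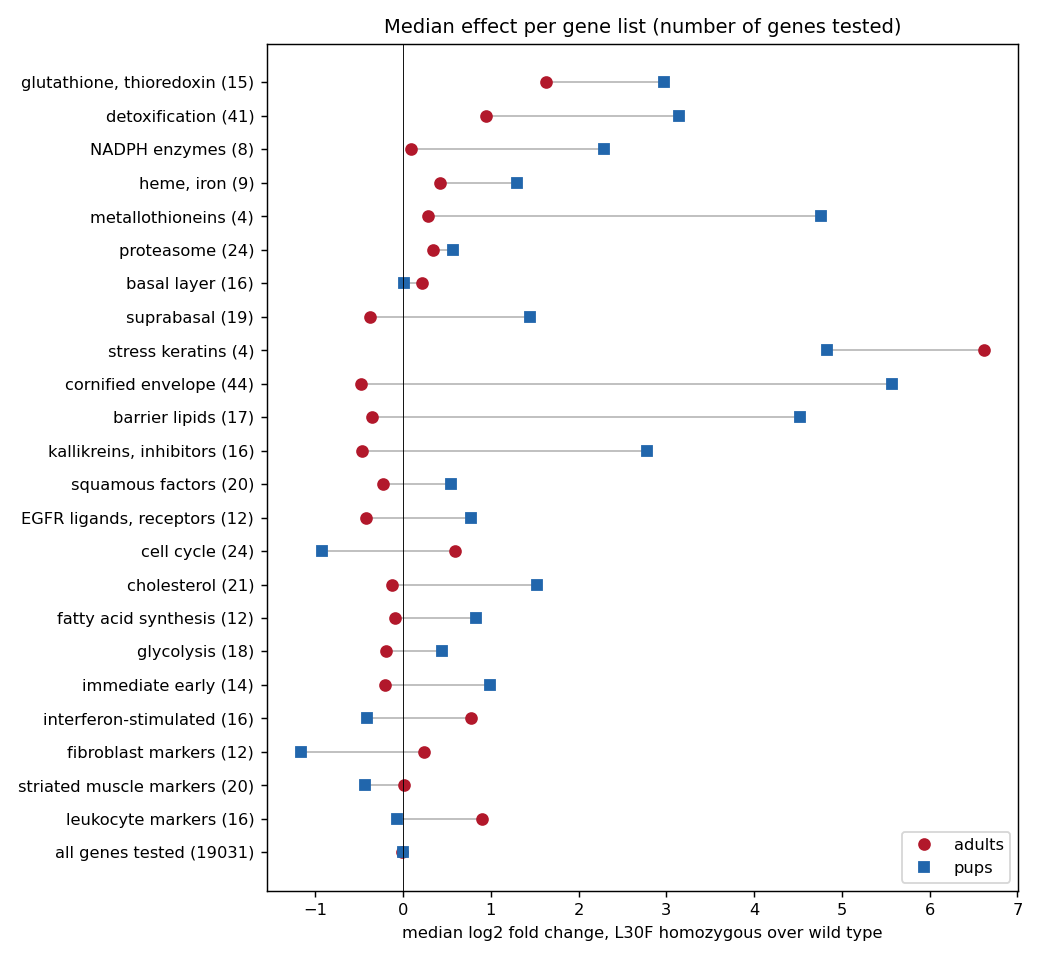
Median log2 effect of NRF2L30F/L30F over Wild-Type for each gene list, with circles for adults and squares for pups. The cornified envelope list stands at -0.48 in adults and 5.57 in pups, the barrier lipid list at -0.36 and 4.53, and the cell cycle list at 0.59 and -0.92.

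The same values can be read as a gap between ages within a genotype, with levels set across 2 separately normalised tables. Over all genes the median gap, adult minus pup, was -0.14 in homozygotes and -0.11 in Wild-Type. At the 3787 genes with a lower effect in adults, it was -0.28 in homozygotes and 0.67 in Wild-Type, and the Wild-Type gap was the larger in size at 69.4% of them, beside 58.3% of all genes. At the 2582 genes with a higher effect in adults, the median gap was 0.19 in homozygotes and -0.76 in Wild-Type, and the Wild-Type gap was the larger at 71.7%. Since the difference in effects equals the homozygous gap minus the Wild-Type gap, the calls fix the order of the 2 gaps but not their sizes. Median gaps of the cornified list were -1.04 in homozygotes and 3.98 in Wild-Type, and those of the barrier lipid list -0.72 and 4.23. Glutathione and thioredoxin genes had median gaps of -0.88 in homozygotes and 0.90 in Wild-Type.

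**Figure D4:**
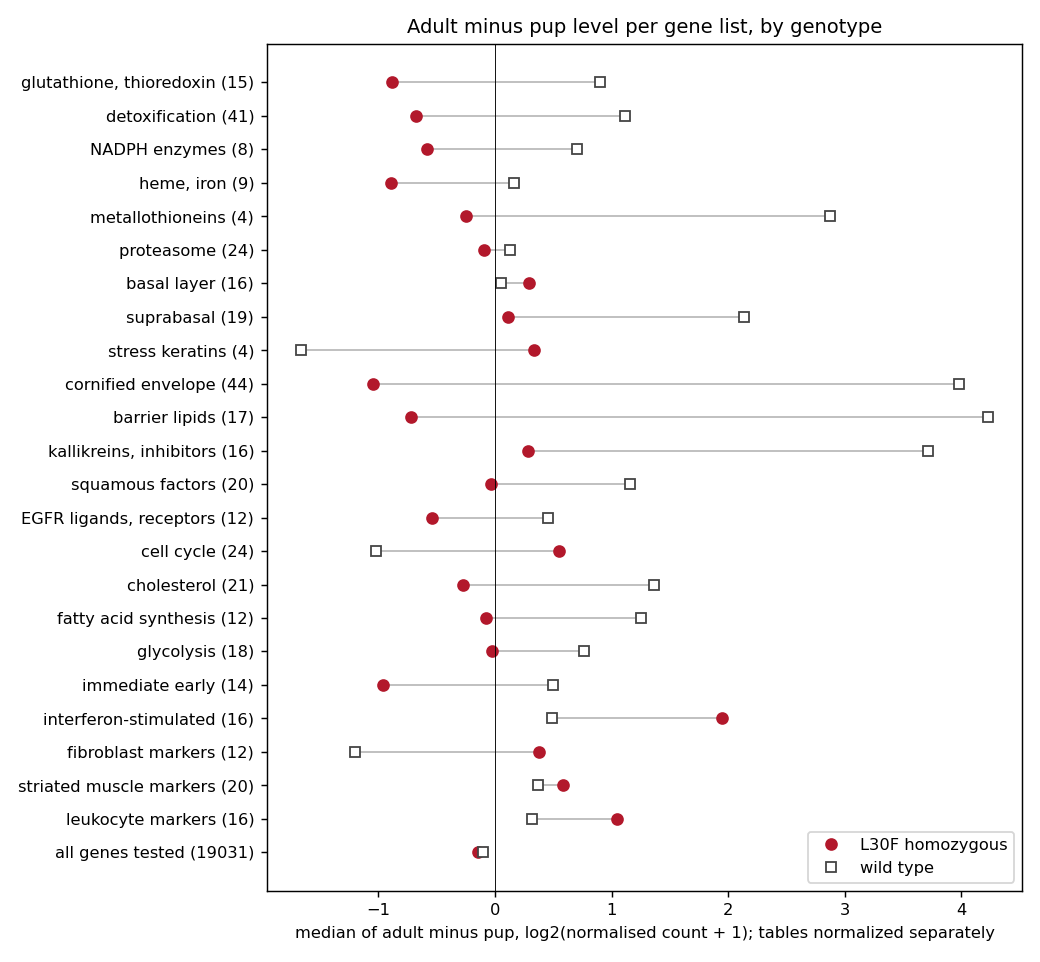
Median level in adults minus level in pups, on the log2 scale, for each gene list, with filled circles for NRF2L30F/L30F and open squares for Wild-Type. Wild-Type gaps reach 4.23 for barrier lipids and 3.98 for the cornified envelope, where homozygous gaps are -0.72 and -1.04.

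Cell cycle genes ran against the differentiation lists. Of 24 tested, 21 had a higher effect in adults and 0 a lower one. In adults 11 rose and 0 fell, in pups 0 rose and 21 fell, and 9 were called in opposite directions. Median effects were 0.59 in adults and -0.92 in pups, and the median difference was 1.48. Mcm2, a subunit of the replicative helicase, held 637, 554, 512 and 603 counts in adult homozygotes, against 286, 300, 300 and 410 in adult Wild-Type. It held 458, 334 and 389 in pup homozygotes, against 890, 723 and 821 in Wild-Type pups. No Mcm2 values overlapped at either age, and the order of the genotypes was opposite. Mcm2 rose by 0.84 in adults and fell by 1.05 in pups (difference 1.89 ± 0.20, adjusted p = 3.7e-08).

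Mcm3, of the same helicase, rose by 0.91 in adults and fell by 1.03 in pups. E2f1, a factor that turns on replication genes, rose by 0.78 in adults and fell by 1.27 in pups (difference 2.05 ± 0.21). Mki67, a marker of cycling cells, fell by 1.11 in pups, and its adult effect of 0.44 did not pass (adjusted p = 0.29). Adult Wild-Type library 4 held 1482 counts of Mki67, against 3656 to 4137 in the other 3, and without it the difference was 1.20 instead of 1.54 (adjusted p = 0.0012). Fibroblast marker genes moved the same way as this list, as given further on, and their part in it was not tested. Cdkn1a, which encodes the p21 inhibitor, fell by 0.70 in adults and rose by 0.85 in pups (difference -1.55 ± 0.16). The p53 target list, to which Cdkn1a belongs, was mixed, with a lower effect in adults for 5 of 14 and a higher one for 2. Beside these stood 19.9% lower and 13.6% higher over all genes, and the list had a median difference of -0.33. Its lower count was 3 without pup homozygote library 2, Wild-Type pup library 1 or Wild-Type pup library 2, and with the striated muscle sum as a covariate. Zmat3 rose by 0.40 in adults and 1.07 in pups, Phlda3 by 0.39 and 0.62, and the interval of the difference for Phlda3 was -0.60 to 0.15.

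Cholesterol synthesis genes had a lower effect in adults for 21 of 21. Their Wild-Type level was the higher in adults, with a median gap of 1.37 between Wild-Type adults and Wild-Type pups. In pups 20 rose, and in adults 0 rose and 3 fell, with median effects of -0.12 in adults and 1.53 in pups and a median difference of -1.58. Sqle, squalene epoxidase, held 1997, 2026, 2033 and 2096 counts in adult homozygotes, inside the 2444, 1926, 2055 and 1836 of adult Wild-Type. It held 2422, 2658 and 2634 in pup homozygotes, against 734, 740 and 831 in Wild-Type pups. Pup homozygotes lay above every adult homozygote and Wild-Type pups below every other library, for a difference of -1.75 ± 0.14 (adjusted p = 3.2e-10). Fdft1, squalene synthase, had a difference of -2.16 ± 0.16 and Hsd17b7, a later enzyme, of -3.04 ± 0.19, and neither passed in adults (adjusted p = 0.72 and 0.066). Fatty acid synthesis genes had a lower effect in adults for 7 of 12 and a higher one for 1, with a median difference of -1.23. Elongase genes Elovl1 and Elovl6 rose in pups by 2.52 and 2.27, with adult effects of -0.29 and -0.34 that did not pass (adjusted p = 0.2 and 0.11). Acss2, which makes acetyl-CoA, rose at both ages, by 0.34 in adults and 2.36 in pups. Scd2, a desaturase, rose by 0.63 in adults and 0.81 in pups, with an interval of the difference from -0.61 to 0.26.

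Glycolysis genes had a lower effect in adults for 12 of 18 and a higher one for 0, with a median difference of -0.80. Hk1, a hexokinase, rose by 0.40 in adults and 2.55 in pups (difference -2.15 ± 0.12). Pkm, pyruvate kinase, rose by 0.23 in adults and 1.09 in pups. Tpi1, triosephosphate isomerase, fell alike at both ages, by 0.31 in adults and 0.40 in pups, with an interval of -0.11 to 0.27. The effect on genes of amino acid stress and serine synthesis was lower in adults for 9 of 16, with a median difference of -0.47. That count was 5 without Wild-Type pup library 2, and 5 with the striated or the smooth muscle sum as a covariate. Trib3, a target of ATF4, had an adult effect of -0.26 (adjusted p = 0.37) and a pup effect of 1.87. Aldh1l2, of mitochondrial folate metabolism, rose by 1.73 in adults and 2.70 in pups, and Sesn2, a sestrin, had a difference of -1.32 ± 0.15. Slc7a5, an amino acid transporter, rose by 0.97 in adults and 1.06 in pups, with an interval of -0.54 to 0.36. Psph, of serine synthesis, rose by 0.67 in adults and 0.86 in pups, with an interval of -0.62 to 0.24.

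Immediate early genes had a lower effect in adults for 12 of 14, with a median difference of -1.37. In pups 12 rose, and in adults 0 rose and 1 fell. Zfp36, which destabilises inflammatory mRNAs, held 1149 to 1345 counts in adult homozygotes and 1091 to 1598 in adult Wild-Type. It held 2040 to 2964 in pup homozygotes and 586 to 631 in Wild-Type pups, a difference of -2.19 ± 0.24 (adjusted p = 2.4e-06). Ier3 and the phosphatase gene Dusp1 rose in pups by 2.05 and 1.89, with adult effects of 0.34 and 0.37 (adjusted p = 0.11 and 0.18). Of 4 tested genes of the aryl hydrocarbon receptor list, 3 had a lower effect in adults, with a median difference of -0.90.

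Alarmins of the IL-1 family had a lower effect in adults for 8 of 13 and a higher one for 0, with a median difference of -1.51, or -5.34 among genes with a mean of at least 50 counts. Il1f9, which encodes IL-36γ, held 2960, 3031, 2467 and 2802 counts in adult homozygotes, against 2171, 1752, 2176 and 1522 in adult Wild-Type. It held 4833, 5037 and 5575 in pup homozygotes, against 28.5, 28.5 and 53.9 in Wild-Type pups. It rose by 0.58 in adults and 7.15 in pups (difference -6.57 ± 0.25, adjusted p = 2.9e-12). Il1f5, the IL-36 receptor antagonist, and Il18 rose in pups by 6.37 and 4.08. Neither passed in adults, with effects of 0.29 and -0.64 (adjusted p = 0.55 and 0.11). Il1a rose at both ages, by 1.24 in adults and 3.03 in pups. Neutrophil chemokine genes had a higher effect in adults for 1 of 10 and a lower one for 1, with a median difference of -0.20. Over all genes these shares were 13.6% and 19.9%.

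Antimicrobial genes had a lower effect in adults for 7 of 13 and a higher one for 1, with a median difference of -1.77. S100a7a, of the psoriasin family, fell by 1.26 in adults and rose by 3.84 in pups (difference -5.10 ± 0.49). Pglyrp3, a peptidoglycan-recognition protein of epithelia, had an adult effect of 0.15 (adjusted p = 0.57) and rose by 5.10 in pups. Pglyrp1, its neutrophil relative, was the higher one, at 4.49 ± 1.22. It held 61.5, 48.1, 203 and 3.49 counts in adult homozygotes and 6.77, 9.27, 12.4 and 94.1 in adult Wild-Type, and 158, 31.5 and 29.7 in pup homozygotes and 766, 518 and 380 in Wild-Type pups. The adult values of Pglyrp1 scattered across both genotypes, and its difference did not pass in 1 fit over both tables (adjusted p = 0.066). S100a8, a calgranulin, rose by 5.10 in adults and 4.46 in pups. Its adult homozygous libraries ran from 131 to 10030, and the interval of its difference, -1.83 to 3.10, was as wide. Defb14, a defensin, rose by 1.02 in adults and 1.64 in pups, with an interval of -1.50 to 0.26.

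Interferon-stimulated genes had a median difference of 1.32 and a lower effect in adults for 0 of 16. The effect was higher for 4 of 16, beside 13.6% of all genes. That count was 2 without adult Wild-Type library 1, pup homozygote library 1, pup homozygote library 3 or Wild-Type pup library 3, and with Ddx3y as a covariate. It was 9 in 1 fit over both tables or with only the 4 groups fitted, and 1 with the smooth muscle sum as a covariate. Usp18, which removes ISG15, held 29.6 to 64.7 counts in adult homozygotes and 64.9 to 76.5 in adult Wild-Type, and 4.93 to 6.14 in pup homozygotes and 82.7 to 126 in Wild-Type pups. It fell by 3.93 in pups, and its difference was 3.29 ± 0.65 (adjusted p = 0.00089). Irf7 had a difference of 2.75 ± 0.72 (adjusted p = 0.012), which did not pass without pup homozygote library 3 (2.38, adjusted p = 0.051) or with the smooth muscle sum as a covariate (1.91, adjusted p = 0.16).

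Wound-response genes had a higher effect in adults for 3 of 11 and a lower one for 1, with a median difference of 0.52. In all that is a share near the 33.5% of all genes with a difference in either direction (13.6% higher, 19.9% lower). The higher count was 5 with only the 4 groups fitted. Tnc, tenascin C, rose by 1.25 in adults and fell by 0.80 in pups (difference 2.05 ± 0.36). Plau, urokinase, rose at both ages, by 1.03 in adults and 1.85 in pups. Timp1, a protease inhibitor, had a difference of 2.79 ± 0.73 (adjusted p = 0.0042). Mucins had a higher effect in adults for 2 of 9 and a lower one for 1, with a median difference of 1.81. These calls too were in all near the 33.5% share over all genes. Muc4, a membrane-bound mucin, held 22.1 to 56.4 counts in adult homozygotes and 23.0 to 321 in adult Wild-Type. It held 299, 7.89 and 45.1 in pup homozygotes, against 5923, 5156 and 3609 in Wild-Type pups, a difference of 5.83 ± 1.44 (adjusted p = 0.0078). Muc15 fell by 1.37 in adults and rose by 1.99 in pups (difference -3.35 ± 0.21).

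Genes of perinatal growth, which decline after birth, had a higher effect in adults for 5 of 10 and a lower one for 1, with a median difference of 0.53. Igf2 held 808 to 1771 counts in adult homozygotes and 708 to 891 in adult Wild-Type, and 27156 to 32828 in pup homozygotes and 50742 to 52313 in Wild-Type pups. It fell by 0.75 in pups, and its adult effect of 0.46 did not pass (adjusted p = 0.2). The imprinted gene Mest had a difference of 2.31 ± 0.38. The imprinted inhibitor Cdkn1c rose by 1.03 in adults and fell by 0.93 in pups (difference 1.96 ± 0.28).

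Among genes with at least 50 mean counts at each age, the most extreme differences included several transporters and enzymes. Ada, adenosine deaminase, is abundant in the squamous foregut of mice. It held 1484, 2043, 2407 and 4197 counts in adult homozygotes, against 23783, 21390, 24690 and 11059 in adult Wild-Type. It held 2103, 1886 and 1503 in pup homozygotes, against 32.0, 28.5 and 29.9 in Wild-Type pups. Homozygotes of both ages shared 1 range, with adult Wild-Type above it and Wild-Type pups below. Ada fell by 3.04 in adults and rose by 5.87 in pups (difference -8.90 ± 0.34, adjusted p = 3.2e-14). Slc6a19, a neutral amino acid transporter, fell by 1.64 in adults and rose by 6.60 in pups. Kprp, a keratinocyte proline-rich protein, fell by 0.90 in adults and rose by 7.06 in pups (difference -7.96 ± 0.65).

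In the other direction, Slc6a14, another amino acid transporter, held 167, 262, 306 and 69.7 counts in adult homozygotes, against 8.13, 8.11, 8.09 and 140 in adult Wild-Type. It held 75.7, 65.1 and 58.4 in pup homozygotes, against 1212, 959 and 720 in Wild-Type pups. Only the adult Wild-Type library 4 reached into the adult homozygous range. Slc6a14 rose by 3.28 in adults and fell by 3.82 in pups (difference 7.10 ± 0.83, adjusted p = 1.6e-06), and the difference was 8.09 without that library. Alox15, Plac8 and Slc5a8 fell in pups by 5.56, 4.13 and 2.73 and did not pass in adults (adjusted p = 0.73, 0.3 and 0.081). Alox15, a lipoxygenase, held 13.8 to 88.1 counts in pup homozygotes and 1515 to 1840 in Wild-Type pups. Its adult counts were 9.47 to 154 in homozygotes and 18.1 to 77.8 in Wild-Type. Apln, the ligand apelin, rose by 1.88 in adults and fell by 3.60 in pups (difference 5.47 ± 0.76). Adam12, a metalloprotease, had a difference of 4.25 ± 0.49, Pappa2, a protease of IGF-binding proteins, of 4.20 ± 0.44, and Tnfrsf11b, osteoprotegerin, of 4.15 ± 0.56. Each of these 3 rose in adults and fell in pups.

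Some genes responded alike at both ages by interval. Those with an interval of the difference within 0.5 of 0 and a call at both ages numbered 371 (1.95%). Heph, a copper ferroxidase, held 1224, 997, 809 and 1224 counts in adult homozygotes, against 145, 136, 123 and 132 in adult Wild-Type. It held 1803, 1764 and 1879 in pup homozygotes, against 221, 196 and 235 in Wild-Type pups. The 2 genotypes were far apart at both ages, with effects of 2.96 in adults and 3.06 in pups and an interval of -0.43 to 0.23. Tmem229b, a membrane protein gene, rose by 1.63 in adults and 1.64 in pups, and the netrin receptor gene Unc5b by 1.18 and 1.17. Calml3, a calmodulin-like protein of squamous cells, fell by 1.86 in adults and 1.91 in pups, and the homeobox gene Hoxa3 by 0.85 and 0.79.

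Markers of other cell types were examined as measured facts beside these results. Fibroblast markers moved with the cell cycle list, with a higher effect in adults for 8 of 12, a lower one for 1 and a median difference of 1.30. Their summed level was 203612 to 283829 in adult homozygotes, against 142932 to 172630 in adult Wild-Type. It was 173898 to 240510 in pup homozygotes, against 478155 to 516519 in Wild-Type pups. The sums did not overlap at either age and had opposite orders. Col1a1 rose by 0.74 in adults and fell by 1.46 in pups (difference 2.20 ± 0.32, adjusted p = 3.1e-05), and Col3a1 rose by 0.98 and fell by 1.20.

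Leukocyte markers had a median difference of 0.78 and a lower effect in adults for 0 of 16. The effect was higher for 5 of 16, beside 13.6% of all genes, and in all near the 33.5% with a difference in either direction. The count was 2 after thinning and 3 in 1 fit over both tables, with only the 4 groups fitted or with either muscle sum as a covariate. It was 2 or 3 without adult homozygote library 1 or 3, adult Wild-Type library 1 or 4, pup homozygote library 1, or Wild-Type pup library 1 or 3. Their summed level was 5539 to 18836 in adult homozygotes and 3104 to 5554 in adult Wild-Type, and 3363 to 3422 in pup homozygotes and 3314 to 3354 in Wild-Type pups. The macrophage gene Adgre1 rose by 0.59 in adults and fell by 0.91 in pups, and Csf1r had a difference of 0.81 ± 0.24. Cd68, of the same cells, rose at both ages, by 0.88 in adults and 0.74 in pups. Endothelial markers had a median difference of 0.33, with a higher effect in adults for 2 of 10 and a lower one for 0, a share near the 13.6% of all genes with a higher effect. The higher count was 4 without pup homozygote library 1. Among them Cdh5 rose by 0.55 in adults and fell by 0.78 in pups, while Eng rose by 0.58 and 0.33.

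Striated muscle markers had a higher effect in adults for 6 of 20 and a lower one for 1 (median difference 0.21). These markers had calls, in all, at a share near the 33.5% of all genes in either direction (13.6% higher, 19.9% lower). Their sums were 510035 to 725041 in adult homozygotes and 551555 to 603966 in adult Wild-Type, and 350612 to 489705 in pup homozygotes and 406731 to 442622 in Wild-Type pups. The fast myosin Myh1 rose by 1.44 in pups (difference -1.11 ± 0.24), while the light chain Myl1 rose by 0.36 in adults and fell by 0.54 in pups. Ckm, muscle creatine kinase, fell by 0.42 in adults and 0.61 in pups. Smooth muscle markers had a lower effect in adults for 1 of 10, with a median difference of 0.60. Their sum was 65588 in pup homozygote library 2, against 20959 and 28941 in the other 2 pup homozygotes and 63004 to 64217 in Wild-Type pups. Without that library the effect was higher in adults for 7 of 10, and for 6 of 10 with the striated muscle sum as a covariate. In adults the smooth muscle sum was 26379 to 38491 in homozygotes and 29064 to 46630 in Wild-Type. Red blood cell genes had a median difference of -3.33, with the 7 genes between -3.77 and -1.56, and gave 0 calls of 7 by limma and by limma-voom and 3 at an unadjusted p under 0.05. With the striated muscle sum as a covariate 4 of 7 were called lower. Their sums were 667 to 28641 in adult homozygotes, 9582 to 148466 in adult Wild-Type, 24852 to 104970 in pup homozygotes and 62047 to 144283 in Wild-Type pups. The effect on nerve and glia markers was higher in adults for 1 and lower for 1 of 11. That on thyroid and airway markers was higher for 1 of 5, and that on cartilage markers lower for 1 of 3. Such single calls in short lists stand beside 13.6% higher and 19.9% lower over all genes. The thyroid and airway sum was 31539 in pup homozygote library 1, against 561 and 391 in pup homozygote libraries 2 and 3. Adipose markers gave 0 of 8 and glandular stomach markers 0 of 4 by limma, by limma-voom and at an unadjusted p under 0.05. The part of these cell types in the results above was not tested.

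**Figure D5:**
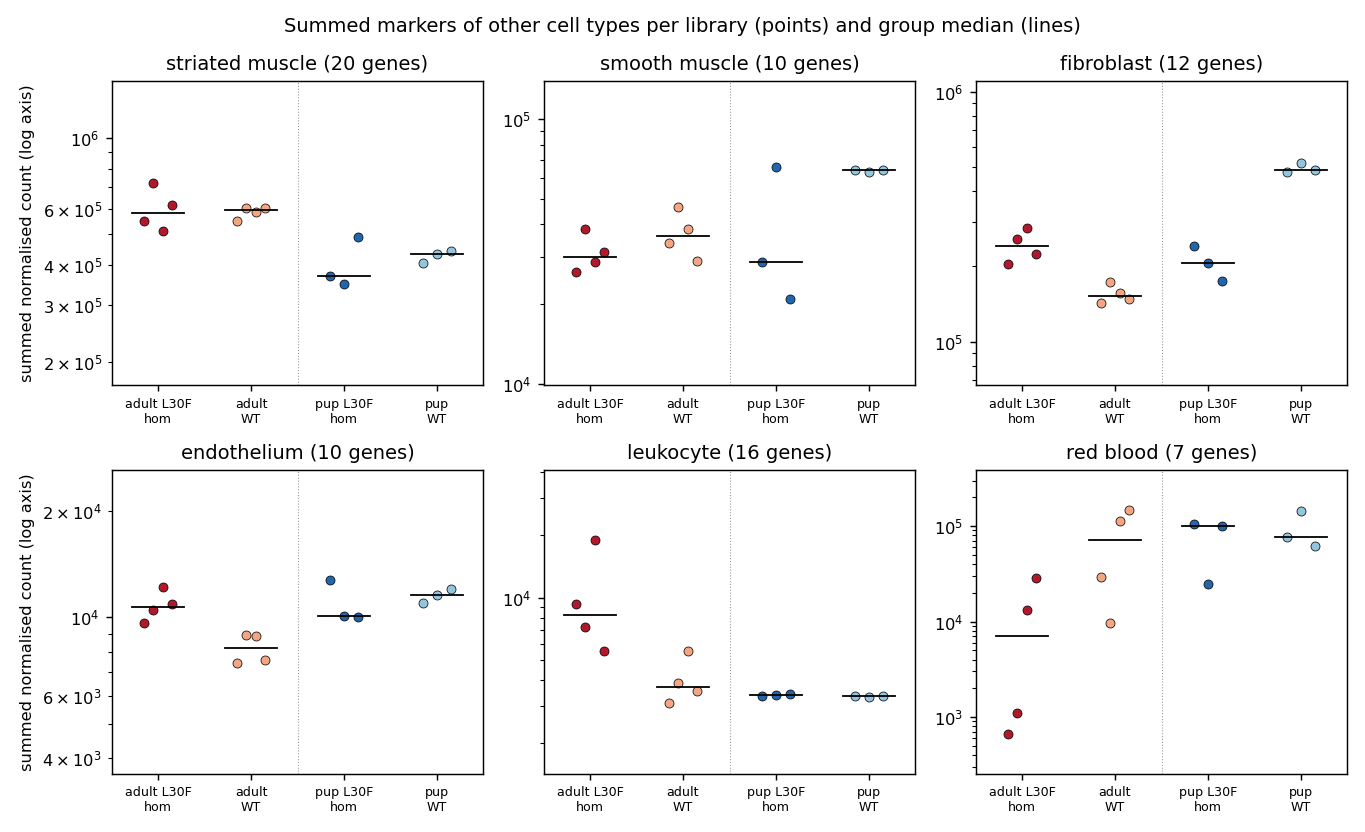
Summed normalised counts of marker genes of other cell types in each library, on a log axis, by group, with lines at group medians. Fibroblast sums are higher in homozygotes than in Wild-Type in adults (203612 to 283829 against 142932 to 172630) and lower in pups (173898 to 240510 against 478155 to 516519).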

How the data were processed

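RNA was sequenced from mouse esophagus. Per the labels' protocols, total RNA was made into strand-specific libraries with the MGIEasy directional kit. Salmon and GRCm39 are named in the submitters' processing notes, and their versions are not stated there. The authors deposited log2 values per gene, one table of pups and one of adults, and low values fell on whole-read steps after 4 was subtracted from the unlogged value. The values were therefore read as log2(normalised count + 4). Reads recovered this way were whole, within 0.1, in 100% of values up to 1000 reads.

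Normalised counts were put on a log2(count + 1) scale. Genes were kept if at least as many libraries as the table's smallest group holds had a normalised count of at least 1. Each table was fitted alone with all its groups by limma 3.58.1 (trend, robust) in R 4.3.3 with statmod 1.5.0. Because the deposited values were on the log2 scale, limma took the place of the count model first planned. The difference of effects was divided by the root of the summed squared standard errors, with Welch-Satterthwaite degrees of freedom, two-sided, and adjusted by Benjamini-Hochberg over 19031 genes. Fold changes on this scale understate changes of low genes. Values are normalised counts per gene, not per length. Intervals are 95%. The procedure was tested on simulated data.

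Genes were matched by symbol within 42 lists. The members and lists were chosen with earlier results of these data known. Genes named were always Nfe2l2, Keap1, Nqo1, Slc7a11, Gclc and Srxn1. Then came the most extreme differences that passed and the most extreme opposite pairs. In each list, the 3 smallest adjusted p-values and 2 genes closest to no difference were added. Of the genes alike by interval, those with the largest effects were added. The text gives a part of these 195 genes. Nfe2l3, Gsto1, Akr1c18, Krt13, Krt10, Krt17, Lor, Mki67, Gclm and Prdx1 were chosen after their values were seen. Libraries of the KEAP1 and heterozygous groups entered the fits, where they inform the spread. Alternatives were other offsets, filters and scalings, limma-voom, 1 fit over both tables, thinning to 10867745 reads, marker sums or Ddx3y as covariates, the replicate number as a block, and each library left out in turn.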

Additional observations from a re-analysis of the deposited data

Results flagged for a closer look

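The effect of NRF2L30F/L30F differed between adults and pups at 6369 genes by the test of the difference itself, and 940 genes were called in opposite directions.

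Named genes that fell in adults and rose in pups had these differences, adult minus pup on the log2 scale: Nfe2l3 -2.09, Me1 -3.32, Krt13 -1.98, Lor -6.83, Tgm3 -2.85, Kprp -7.96, Pla2g4b -9.37, Grhl3 -2.37, Cdkn1a -1.55, Muc15 -3.35, Ada -8.90, Slc6a19 -8.24, Asprv1 -4.36, Klk11 -2.22, Alox12b -5.48, Nrarp -1.55, Notch2 -0.57, Notch3 -0.78 and S100a7a -5.10.

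Named genes that rose in adults and fell in pups had these: Pdpn 1.79, Mcm2 1.89, E2f1 2.05, Tnc 2.05, Cdkn1c 1.96, Slc6a14 7.10, Apln 5.47, Adam12 4.25, Pappa2 4.20, Tnfrsf11b 4.15, Col1a1 2.20, Adgre1 1.50, Cdh5 1.33, Mcm3 1.94, Col3a1 2.17 and Myl1 0.90.

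Single libraries stood far from the other 3 of their group in 13 of 304 groups of 4, where chance gives about 1 in 20. Adult Wild-Type library 4 was high for Krt6a (4445 normalised counts), Sprr2d (227), Mcm2 (410) and Slc6a14 (140), and low for Lor (20825), Mki67 (1482), Zfp36 (1091) and Klk8 (333). Adult Wild-Type library 2 was high for Timp1 (163) and low for Prdx1 (3145). Adult homozygote library 4 was low for Krt17 (338), library 1 was high for Unc5b (611) and library 3 was low for Hoxa3 (116).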

How the results depend on the processing

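Of 126 named differences, 0 were reversed and 119 stayed past the threshold in each of up to 27 alternatives. List counts were less steady. Smooth muscle markers, with 0 higher and 1 lower of 10, had 7 higher without pup homozygote library 2. Over alternatives other than leaving out a library, the count of differences that passed ran from 3131 to 6470, the lowest being those of at least 2-fold. Adult calls ran from 3727 to 4900, pup calls from 6160 to 7984, and opposite calls from 648 to 1098. Genes alike by interval ran from 173 to 495, and the 173 came with the smooth muscle sum as a covariate. Leaving out 1 library gave 5454 to 6351 differences (lowest without Wild-Type pup library 3), 3001 to 4408 adult calls (lowest without adult Wild-Type library 1), 6197 to 7745 pup calls, 635 to 1061 opposite calls and 243 to 373 genes alike (lowest without adult Wild-Type library 2, with 246 without Wild-Type pup library 3 and 247 without adult homozygote library 1). The cause of these moves was not tested, beyond the fewer libraries. Thinning every library to the lowest depth gave 5746 differences. TMM scaling moved all adult libraries by 0.12 to 0.14 and so left effects within adults in place. A share of 38.3% to 42.7% of called differences was positive (lowest without Wild-Type pup library 3). With the replicate number as a block, 6414 differences, 4231 adult calls, 7597 pup calls, 949 opposite calls and 347 genes alike were found. Deviations of same-numbered libraries correlated at -0.125 to 0.06, within the -0.246 to 0.155 of libraries with different numbers. With 3 or 4 libraries per group, these values do not settle whether the numbers pair samples. A quasi-likelihood count model on recovered reads was not run.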

Other observations

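Replication-dependent histone genes and collagen chains were picked by symbol after their values were seen, so their counts are descriptions. Histone genes, whose mRNAs rise in S phase and lack poly(A) tails, had a higher effect in adults for 57 of 61 and a lower one for 0. The shares over all genes were 13.6% and 19.9%. In adults 51 rose and 0 fell, and in pups 1 rose and 53 fell, with 46 called in opposite directions. Their summed level was 43426 to 58079 normalised counts in adult homozygotes, against 23719 to 30204 in adult Wild-Type. It was 35409 to 42359 in pup homozygotes, against 70278 to 81131 in Wild-Type pups. The median difference was 2.25, with median effects of 0.90 in adults and -1.26 in pups. Histone genes are near copies of each other, so single members are uncertain.

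Collagen chains gave 21 higher and 1 lower of 41, with a median difference of 0.70. Over all genes the calls were 13.6% higher and 19.9% lower. In adults 12 rose and 4 fell, beside 12.1% and 10.6% of all genes. In pups 1 rose and 23 fell, beside 23.6% and 17.1%. Their summed level was 272564 to 365168 in adult homozygotes and 182655 to 229626 in adult Wild-Type, and 250339 to 337669 in pup homozygotes and 644299 to 671811 in Wild-Type pups. Neither sum overlapped between genotypes at either age.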
